A study of Mus musculus with 12 samples.

Results

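The Zfp36 family of mRNA decay factors has 3 members in the deposited table of 15217 genes, Zfp36 (ENSMUSG00000044786), Zfp36l1 (ENSMUSG00000021127) and Zfp36l2 (ENSMUSG00000045817), taken by gene symbol. All 3 were among the 11080 genes with enough counts to be tested. They were followed in wild-type NIH-3T3 cells, an established mouse embryonic fibroblast line, by SLAM-seq, in which 4-thiouridine (4sU) enters newly made RNA and iodoacetamide turns it into a base that is read as C in place of T. The fixed cells groups had the iodoacetamide reaction inside methanol-fixed cells, with 4sU at 0, 200 or 800 µM over 2 hours. The tube groups had the same 3 doses and hours, with the reaction carried out in tubes on RNA already isolated. Per the labels' protocols the reaction also differed between the procedures in temperature and duration, so these differences cannot be told apart from the place of the reaction. Each of the 6 groups had 2 libraries of total RNA, replicates A and B. The labels do not say that A and B came from separate cultures, so p-values here measure the spread between these libraries, which may be technical.

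The proteins of this family carry a pair of CCCH zinc fingers that bind AU-rich elements in the 3′ untranslated regions of mRNAs. They bring the CCR4-NOT deadenylase complex and decapping factors to the bound mRNA, whose poly(A) tail is then shortened and whose body is degraded. Zfp36 encodes tristetraprolin, known as an immediate early gene of growth factor-stimulated fibroblasts and as a brake on inflammatory cytokine mRNAs. Zfp36l1 and Zfp36l2 encode paralogs that hold lymphocyte progenitors in quiescence, and Zfp36l2 is also needed in oocytes. Tristetraprolin has been described to bind AU-rich elements in its own mRNA.

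All 3 genes have AU-rich elements of the kind their proteins bind. Zfp36 lies on chr7:28376784-28380253, Zfp36l1 on chr12:80107754-80113013 and Zfp36l2 on chr17:84183931-84187947, all on the minus strand with 2 exons (GENCODE M21, GRCm38). The deposited lengths of 2790, 2990 and 3530 bases equal those of the longest transcripts annotated there. Their 3′ untranslated regions are 774, 1835 and 1822 bases long. Each holds 3 copies of the heptamer TATTTAT, searched on the mRNA strand with overlaps counted, and none lies upstream of the stop codon. Of 10746 tested genes with an annotated 3′ untranslated region, 31.2% have at least 1 copy and 4.07% have 3 or more. These shares do not account for the length of the region. Per kilobase of it, Zfp36 holds 3.88 copies, Zfp36l1 1.63 and Zfp36l2 1.65. Each member also has 1 copy of the longer nonamer TTATTTATT, which 8.29% of those genes hold. The 3 nonamers are shown because they are the stretches closest to the element that the family's zinc fingers bind; the sequences are from GRCm38, 5′ to 3′ along the mRNA strand, with the nonamer in capitals.
Zfp36: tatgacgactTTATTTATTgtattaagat
Zfp36l1: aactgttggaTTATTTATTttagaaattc
Zfp36l2: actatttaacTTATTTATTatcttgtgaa
These sites span chr7:28376951-28376979, chr12:80108167-80108195 and chr17:84184914-84184942, and the heptamer inside each starts 590, 1405 and 822 bases after the stop codon. The 3 heptamers of Zfp36 start 575 to 615 bases after the stop codon, against 1150 to 1405 bases in Zfp36l1 and 822 to 1056 bases in Zfp36l2. Uracil makes up 25.1%, 26.8% and 24.0% of these 3 mRNAs, against a median of 24.6% over the same genes. A match of letters describes the sequence only, and binding was not measured in these data.

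The libraries held 3629634 to 7762635 counts each. The replicates of a group correlated at 0.976 to 0.986 over log CPM (Pearson, across genes, which are not independent). Replicate A of fixed cells at 800 µM stood apart, with the lowest scaling factor (0.835). Its pair differed most, at 21.6 times the variance expected from counting, against 3.15 to 6.81 in the other pairs. That figure rests on library totals without the scaling factors. By correlation this pair and that of tubes without 4sU were alike, at 0.976 each. All 12 fibroblast markers checked, among them Col1a1, Vim and Thy1, were present. Of 6 leukocyte markers in the table, 3 (Cd68, Csf1r and Cd14) averaged 1 CPM or more, their list summing to 13.5 to 18.1 CPM in fixed cells and 11.1 to 21.9 CPM in tubes, while Ptprc, which marks leukocytes as a class, was at 0 in 11 of 12 libraries.

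Zfp36l2 was the most abundant member and Zfp36 by far the least. Levels are CPM, counts scaled to library size with TMM factors, and levels of different genes are compared per kilobase of the deposited length. Zfp36l2 held 60.0 to 72.1% of the family's CPM per kilobase in fixed cells and 56.6 to 61.3% in tubes. Zfp36l1 held 25.9 to 36.3% in fixed cells and 36.5 to 40.6% in tubes. Zfp36 held 1.62 to 3.74% in fixed cells and 1.54 to 4.79% in tubes. The order Zfp36l2, Zfp36l1, Zfp36 was the same in all 12 libraries. Zfp36l2 exceeded Zfp36l1 per kilobase by 1.65 to 2.79-fold in fixed cells and by 1.41 to 1.68-fold in tubes, and Zfp36l1 exceeded Zfp36 by 9.70 to 19.6-fold in fixed cells and by 8.06 to 24.1-fold in tubes.

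Zfp36 rested on 21 to 60.1 counts per library. In fixed cells its level was 7.33 and 3.52 CPM without 4sU, 5.88 and 6.04 CPM at 200 µM and 4.31 and 6.70 CPM at 800 µM, for replicates A and B. In tubes it was 14.4 and 4.36 CPM without 4sU, 7.10 and 7.86 CPM at 200 µM and 7.14 and 6.88 CPM at 800 µM. The widest gap lay between the replicates of tubes without 4sU, and the ranges of fixed cells and tubes overlapped.

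Zfp36l1 had 294.5 to 1091 counts per library. In fixed cells its level was 77.4 and 73.9 CPM without 4sU, 77.9 and 66.1 CPM at 200 µM and 60.3 and 69.6 CPM at 800 µM. In tubes it was 124.6 and 113 CPM without 4sU, 122 and 131 CPM at 200 µM and 139 and 128 CPM at 800 µM. Every fixed cell library lay below every tube library, with the highest fixed value at 77.9 CPM and the lowest tube value at 113 CPM.

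Zfp36l2 had 811 to 1935 counts per library. In fixed cells its level was 220.2 and 183 CPM without 4sU, 158 and 155 CPM at 200 µM and 199 and 136 CPM at 800 µM. In tubes it was 216 and 219 CPM without 4sU, 241 and 239 CPM at 200 µM and 247 and 212 CPM at 800 µM. Without 4sU the procedures overlapped, while each labelled fixed cell library lay below each labelled tube library.

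**Figure D1:**
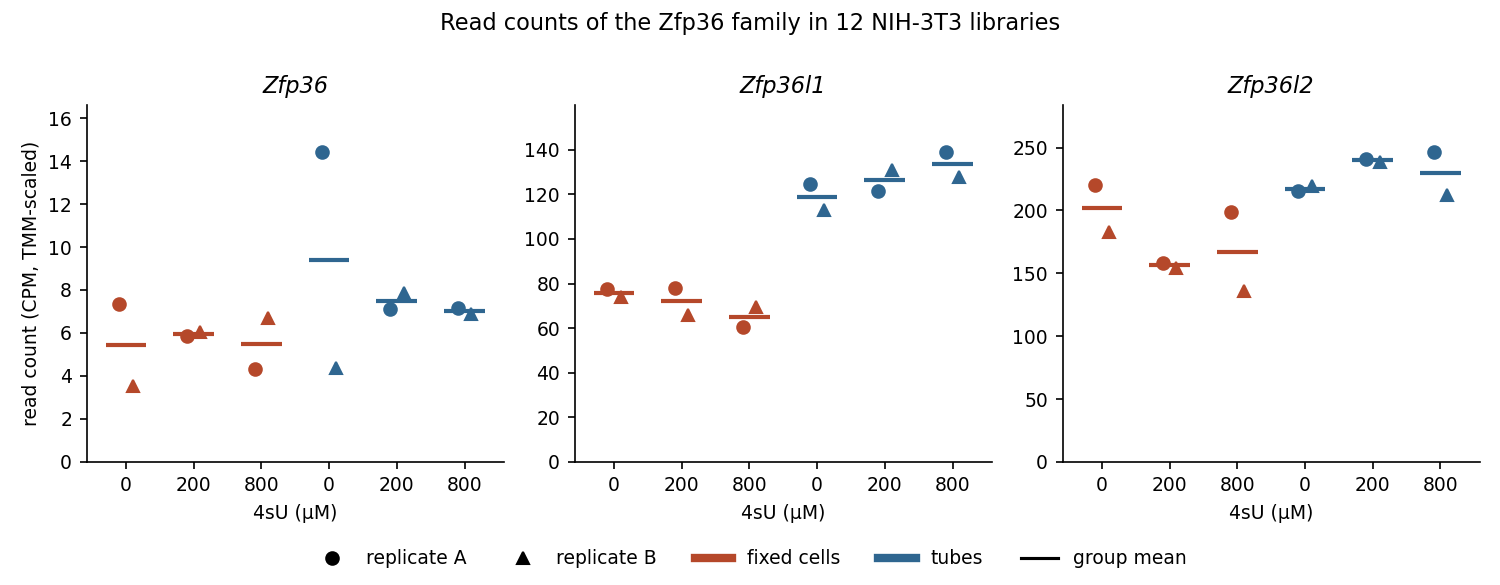
Read counts (CPM after TMM scaling, linear axes from 0) of Zfp36, Zfp36l1 and Zfp36l2 at 0, 200 and 800 µM 4sU in fixed cells (left) and tubes (right), with a point per library and a bar at each group mean. Zfp36l1 is at 77.9 CPM or less in all fixed cell libraries and at 113 CPM or more in all tube libraries.

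Nearly all RNA of the 3 genes was scored as new after 2 hours of 4sU. The deposited new-to-total ratio estimates the share of a gene's RNA made during labelling, and it covers the 8 labelled libraries. At a constant RNA level a higher ratio corresponds to faster turnover. Averaged over these libraries the ratio was 97.1% for Zfp36, 98.2% for Zfp36l1 and 93.9% for Zfp36l2, against a median of 44.6% over 10987 genes. These averages exceeded those of 98.6%, 99.4% and 95.7% of genes, and all 3 members fell in the top 10%, which begins at 88.6% and holds 1099 genes. In single libraries 4.57 to 10.4% of genes were tied at a ratio of 100%. There Zfp36 exceeded 89.6 to 95.4% of genes and Zfp36l1 exceeded 89.1 to 95.1%.

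**Figure D2:**
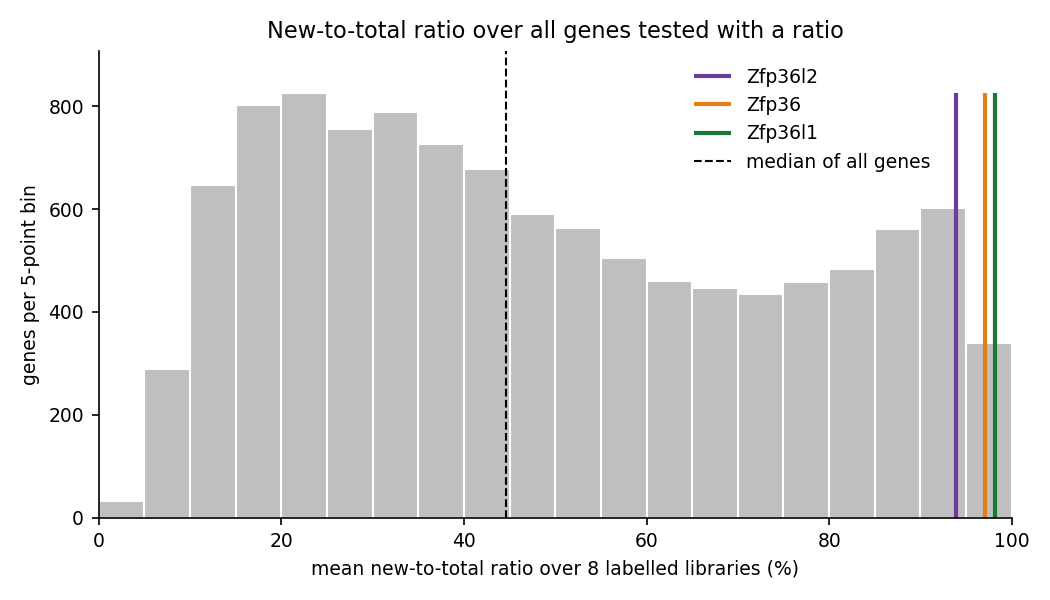
Distribution of the mean new-to-total ratio over 10987 genes in bins of 5 percentage points, with the 3 members as coloured lines and the median of all genes (44.6%) as a dashed line. Zfp36l2 at 93.9%, Zfp36 at 97.1% and Zfp36l1 at 98.2% lie at the right end.

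The most likely ratio of Zfp36 was 100% in both fixed cell libraries at 200 µM, and 85.6% and 100% at 800 µM. In tubes it was 97.8% and 100% at 200 µM and 100% and 93.4% at 800 µM. With its low counts the deposited lower limits (0.05 quantiles) went down to 50.9%, in replicate A of fixed cells at 800 µM, and reached at most 93.4%. Its ratios carry no test, because it stayed below 100 counts in every library.

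For Zfp36l1 the ratio was 98.9% and 100% in fixed cells at 200 µM and 100% in both libraries at 800 µM. In tubes it was 98.2% and 96.8% at 200 µM and 94.4% and 97.4% at 800 µM. Its lower limits were 92.2 to 97.3%. The fixed cell values lay above all tube values, although the median over the 5538 genes with at least 100 counts in each labelled library was lower in fixed cells (25.9 to 35.7%) than in tubes (36.2 to 42.3%).

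For Zfp36l2 the ratio was 97.2% and 100% in fixed cells at 200 µM, and 83.1% and 97.3% at 800 µM. In tubes it was 89.7% and 93.9% at 200 µM and 93.4% and 96.6% at 800 µM. The lowest value, 83.1% with limits of 77.1 to 88.4%, came from replicate A of fixed cells at 800 µM. That library also had the lowest median over genes, 25.9% against 32.1% in its replicate, and the part of this in the Zfp36l2 value was not tested. In that library 89.0% of genes had a lower ratio than Zfp36l2. Over the 8 labelled libraries this share ran from 87.37%, in replicate A of tubes at 200 µM, to 92.99%, in replicate B of tubes at 800 µM. Multiplying the level by the share not scored as new leaves 0 to 0.621 CPM of older RNA for Zfp36, 0 to 7.75 CPM for Zfp36l1 and 0 to 33.6 CPM for Zfp36l2 over the 8 libraries. These values use the most likely ratio alone. It was 100% in 5 libraries for Zfp36, 3 for Zfp36l1 and 1 for Zfp36l2, which sets the lower ends at 0. At the deposited lower limits, down to 50.9% for Zfp36, more older RNA would remain.

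**Figure D3:**
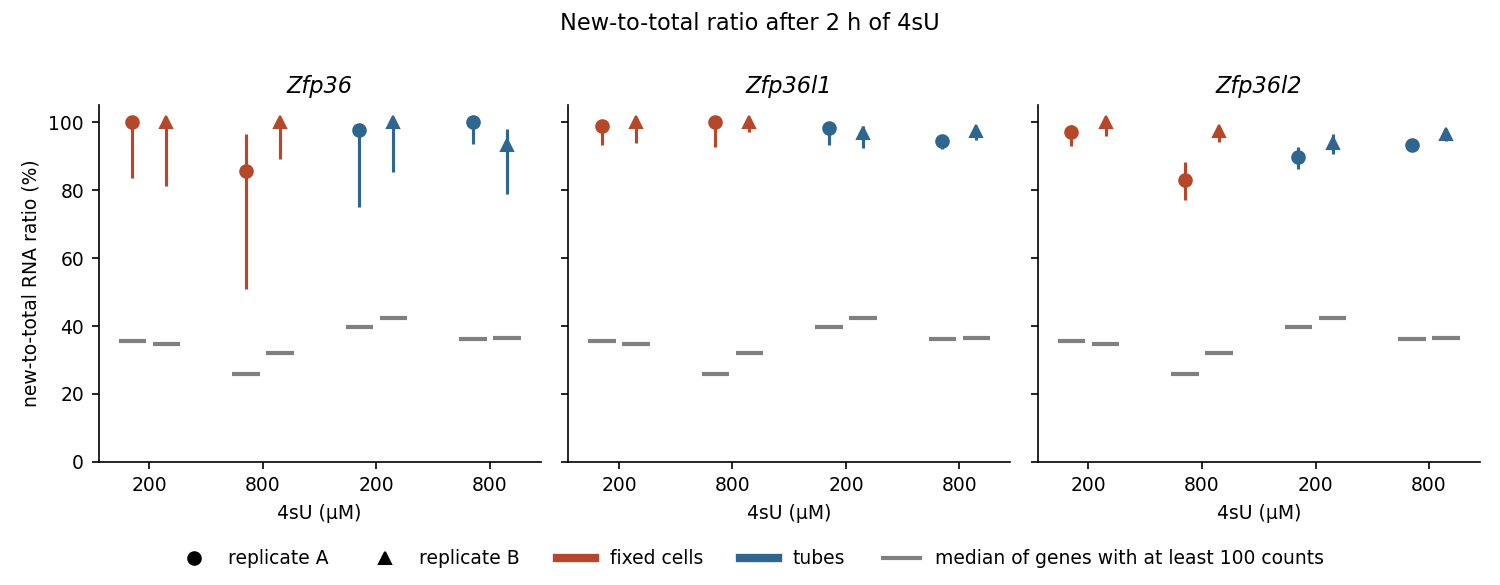
New-to-total ratio (most likely value, points) with the deposited 0.05 to 0.95 quantiles (vertical lines) in the labelled libraries of fixed cells (left) and tubes (right), and the median over genes with at least 100 counts in grey. Every member value is at 83.1% or more, while the grey medians run from 25.9 to 42.3%.

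No ratio difference between groups passed the test for Zfp36l1 or Zfp36l2. This test (limma on the log odds of the ratio, Benjamini-Hochberg adjustment over 5538 genes) called 0% of genes in each of the 4 comparisons, with 462 to 1145 genes at an unadjusted p under 0.05. Ratios of 100% have no finite log odds and were set to 99%, so the size of a difference depends on that limit wherever it was reached. For Zfp36l1 this applies to 3 of the 4 fixed cell values: fixed cells minus tubes came to 0.88 and 1.37 (natural log odds) at 200 and 800 µM with the limit at 99% and to 2.03 and 3.68 with it at 99.9%, and neither passed the test (adjusted p = 0.630 and 0.407 at 99%, limma). For Zfp36l2 it applies to 1 fixed cell value at 200 µM, where the difference was 1.62 ± 0.83 (SE) with the limit at 99% and 2.78 ± 1.22 with it at 99.9%. At 800 µM, where no value of Zfp36l2 was at the limit, the difference was -0.41 ± 0.83, and 0.58 without replicate A of fixed cells at that dose or -1.41 without replicate B (adjusted p = 0.331 at 200 µM and 0.792 at 800 µM, limma). At 800 against 200 µM in tubes the log odds differed by -0.46 ± 0.92 for Zfp36l1 and by 0.55 ± 0.83 for Zfp36l2. In fixed cells those of Zfp36l2 differed by -1.48 ± 0.83 (-2.64 with the limit at 99.9%), and by -0.49 and -2.48 without replicates A and B at 800 µM. Over the 5538 genes the median difference at 800 against 200 µM was -0.32 in fixed cells and -0.20 in tubes. For fixed cells against tubes it was -0.19 at 200 µM and -0.31 at 800 µM.

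4sU changed the level of no member detectably in either procedure. Of all tested genes, edgeR's quasi-likelihood test (Benjamini-Hochberg adjusted p under 0.05) called 0.812% at 200 µM and 2.66% at 800 µM against no 4sU in fixed cells, and 3.75% at 200 µM and 1.87% at 800 µM in tubes. In these bulk libraries less RNA per cell and fewer cells with the RNA cannot be told apart. Zfp36l1 differed on the log2 scale by -0.07 (95% interval -0.36 to 0.22) at 200 µM and by -0.22 (-0.51 to 0.08) at 800 µM in fixed cells. In tubes it differed by 0.09 (-0.19 to 0.37) at 200 µM and by 0.17 (-0.11 to 0.45) at 800 µM. Each of these 4 intervals includes 0. The value at 800 µM in fixed cells was -0.07 without replicate A and -0.33 without replicate B of that dose.

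Zfp36l2 differed by -0.36 (-0.69 to -0.04) at 200 µM and by -0.27 (-0.60 to 0.06) at 800 µM in fixed cells. The first of these had an unadjusted p of 0.0315 and an adjusted p of 0.334 (edgeR). In a fit of only the 2 groups compared it was -0.37 with an adjusted p of 0.0268 (edgeR). The value at 800 µM was -0.52 without replicate A and -0.02 without replicate B of that dose. In tubes Zfp36l2 differed by 0.14 (-0.19 to 0.47) at 200 µM and by 0.08 (-0.25 to 0.41) at 800 µM. Both labelled doses of fixed cells had a mean below the unlabelled one, at 156 ± 2.62 CPM for 200 µM and 167 ± 44.5 CPM for 800 µM against 202 ± 26.3 CPM for no 4sU (SD, n = 2 each). The replicates at 800 µM lay at 199 and 136 CPM.

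Zfp36, with few counts, differed by 0.16 (-0.79 to 1.10) at 200 µM and by 0.06 (-0.93 to 1.04) at 800 µM in fixed cells. In tubes it differed by -0.29 (-1.22 to 0.63) at 200 µM and by -0.39 (-1.29 to 0.51) at 800 µM. The tube values turned to 0.78 and 0.69 without replicate A of tubes without 4sU, and to -0.94 and -1.04 without replicate B of that group. The fixed cell values became -0.26 and -0.36 without replicate B of fixed cells without 4sU, 0.76 and 0.66 without its replicate A, and -0.31 at 800 µM without replicate B of that dose. These intervals are about 3 times as wide as those of Zfp36l1 and Zfp36l2.

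Between 800 and 200 µM no gene was called in either procedure (0% by edgeR), with 872 genes in fixed cells and 987 in tubes at an unadjusted p under 0.05. The members differed by -0.15 to 0.09 on the log2 scale between these doses. The 4sU effect did not pass a test of difference between fixed cells and tubes for any gene either (0% by edgeR), with 993 genes at 200 µM and 654 at 800 µM at an unadjusted p under 0.05. For Zfp36l2 the effect in fixed cells minus that in tubes was -0.51 (-0.97 to -0.04) at 200 µM, with an unadjusted p of 0.0345 and an adjusted p of 0.519 (edgeR), and -0.35 (-0.81 to 0.12) at 800 µM. For Zfp36l1 it was -0.16 (-0.57 to 0.25) at 200 µM and -0.39 (-0.79 to 0.02) at 800 µM. Without replicate A of fixed cells at 800 µM the differences at that dose were -0.56 for Zfp36l2 and -0.20 for Zfp36l1, and without replicate B -0.10 and -0.50. For Zfp36 it was 0.45 at both doses, with intervals of -0.89 to 1.78 or narrower, and turned to -0.62 and -0.63 without replicate A of tubes without 4sU.

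Zfp36l1 was lower in fixed cells than in tubes, and this held without label. Without 4sU its group means were 75.6 ± 2.48 CPM in fixed cells and 119 ± 8.36 CPM in tubes (SD, n = 2 each), a log2 difference of -0.65 (-0.94 to -0.36, adjusted p = 0.00156, edgeR). That is 36.3% lower, in a comparison in which 31.4% of all tested genes were called, 16.2% of the tested genes higher and 15.2% lower. Zfp36l2, at 202 ± 26.3 CPM in fixed cells and 217 ± 2.62 CPM in tubes, differed by -0.11 (-0.44 to 0.22, adjusted p = 0.636, edgeR). Zfp36, at 5.42 ± 2.69 CPM in fixed cells and 9.40 ± 7.12 CPM in tubes, differed by -0.78 (-1.73 to 0.17, adjusted p = 0.206, edgeR). The Zfp36 difference was 0.30 without replicate A of tubes without 4sU and -1.43 without its replicate B (adjusted p = 0.709 and 0.0218, edgeR).

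The labelled libraries gave the same comparison again, with group means from other libraries. All these contrasts came from the same fit and share its estimate of the spread, so their p-values are not independent. At 200 µM Zfp36l1 averaged 72.0 ± 8.40 CPM in fixed cells and 126 ± 6.40 CPM in tubes (SD, n = 2 each), a log2 difference of -0.81 (-1.10 to -0.52, adjusted p = 0.000272, edgeR). At 800 µM it averaged 65.0 ± 6.57 CPM in fixed cells and 133 ± 8.05 CPM in tubes, a difference of -1.04 (-1.33 to -0.75, adjusted p = 3.0e-05, edgeR). Zfp36l2 differed by -0.62 (-0.95 to -0.29) at 200 µM and by -0.46 (-0.79 to -0.13) at 800 µM (adjusted p = 0.0058 and 0.0295, edgeR). Lower calls made up 17.8% of tested genes at 200 µM and 18.3% at 800 µM, and calls in either direction 32.3% and 35.1%. The Zfp36l2 call at 200 µM was lost without replicate B of fixed cells at 200 µM (-0.60, adjusted p = 0.0540, edgeR). Its call at 800 µM was lost without replicate A of tubes at 800 µM (-0.35), without replicate B of fixed cells at 800 µM (-0.21), without replicate B of fixed cells without 4sU (-0.42) and in a fit of those groups alone (-0.41, adjusted p = 0.137, edgeR). Zfp36 differed by -0.33 at both doses, with intervals of -1.27 to 0.60 or narrower; at 800 µM it was -0.0073 without replicate A and -0.70 without replicate B of fixed cells at that dose.

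Genes with a high new-to-total ratio were, at the median, lower in fixed cells. In the top 10% by ratio, where the members lie, the median log2 difference of fixed cells against tubes was -0.21 without 4sU, -0.30 at 200 µM and -0.35 at 800 µM, and 22.4% of that part was called lower without 4sU, against 15.2% of all genes. In the bottom 10% the median without 4sU was 0.38. How far the Zfp36l1 difference belongs to that trend was not tested. When TMM factors came from the 3662 genes of lowest ratio alone, the median over all genes moved by -0.26 without 4sU and Zfp36l1 stood at -0.91; such a change of factors shifts all genes alike. It also moved the share of higher calls among all calls to 23.3%, against 51.6% with the scaling used here.

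**Figure D4:**
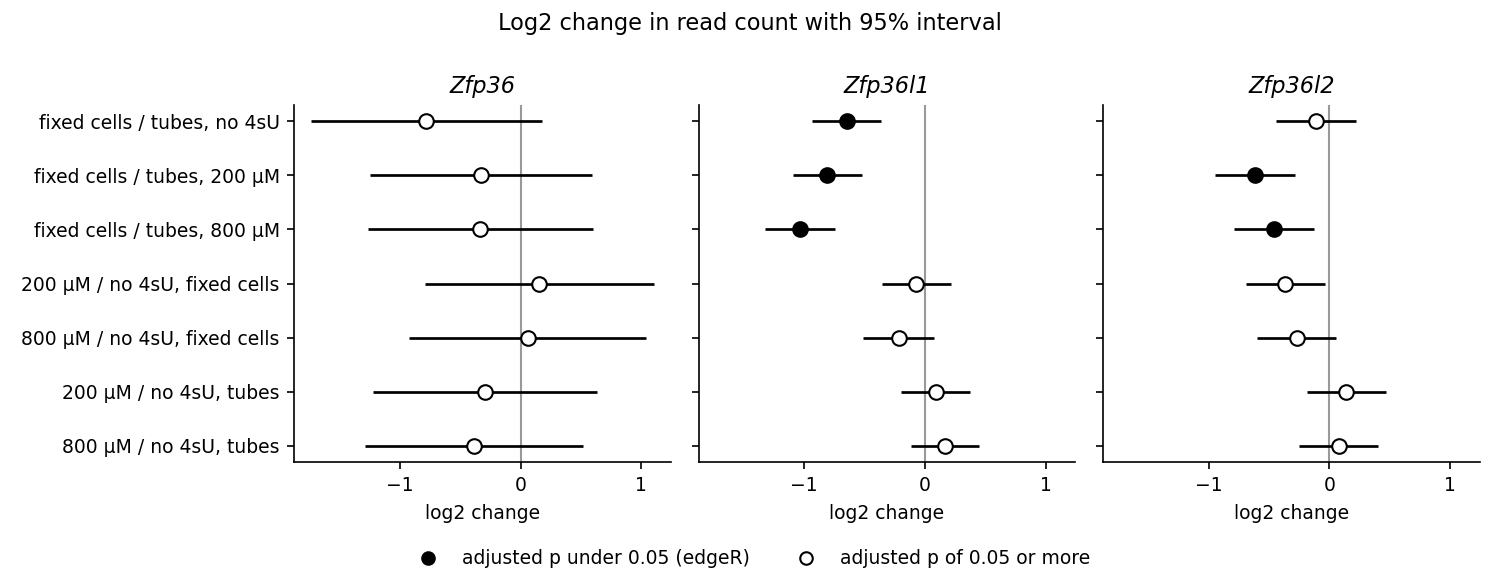
Log2 change in read count (points) with its 95% interval (lines) for the 3 members in 3 comparisons of fixed cells against tubes (top) and 4 of 4sU against no 4sU (below). Filled points passed the edgeR test; these are Zfp36l1 at all 3 doses of fixed cells against tubes (-0.65, -0.81 and -1.04) and Zfp36l2 at 200 and 800 µM (-0.62 and -0.46).

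The proteins with which the family works were described by lists. The deadenylase and decapping list, with the CCR4-NOT subunits that the family recruits, had 35 of its 37 genes tested, and its median ratio was 56.0%. At 800 µM against no 4sU, 1 of these rose and 1 fell in fixed cells, and 1 rose in tubes. Over all genes 0.776% rose and 1.89% fell in that comparison in fixed cells, and 0.912% rose and 0.957% fell in tubes. Btg2, an antiproliferative protein that binds the Cnot7 and Cnot8 deadenylases, rose by 1.04 ± 0.23 (log2, SE) in fixed cells and by 1.32 ± 0.24 in tubes (adjusted p = 0.0196 and 0.00864, edgeR). Cnot6l, a catalytic deadenylase subunit, fell by 0.71 ± 0.17 in fixed cells (adjusted p = 0.0364, edgeR). In fixed cells against tubes without 4sU, 5 rose and 7 fell, a share of 34.3% against 31.4% of all genes (16.2% higher and 15.2% lower). Among them were Cnot3, a CCR4-NOT scaffold subunit, at -1.16 ± 0.24, and Gigyf2, a translational repressor that binds tristetraprolin, at -1.36 ± 0.21. Lsm3, of the ring that binds deadenylated mRNA ends, stood at 0.73 ± 0.13.

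Of the RNA exosome and Ski complex, which degrade mRNA from its 3′ end, all 16 genes were tested. In fixed cells against tubes without 4sU, 6 rose and none fell, led by Wdr61 at 1.70 ± 0.19 and Exosc7 at 1.40 ± 0.19 (adjusted p = 7.1e-06 and 4.4e-05, edgeR), and the list's median was 0.38 against -0.009 over all genes. The share called was 37.5%, all of it higher, against 31.4% of all genes called, 16.2% higher and 15.2% lower. Exosc7 fell by 0.77 ± 0.18 at 800 µM against no 4sU in fixed cells (adjusted p = 0.0302, edgeR). Of 22 other RNA-binding regulators of mRNA stability, none rose and 7 fell in fixed cells against tubes without 4sU, among them Igf2bp1 at -1.08 ± 0.16 and Igf2bp2 at -0.79 ± 0.12, which stabilise their bound mRNAs. That is 31.8% of the list, all of it lower, against 15.2% of all genes lower and 31.4% called in either direction. With TMM factors from low-ratio genes 15 of the list were called. In that fit 4089 of all 11080 tested genes were called, 953 higher and 3136 lower. Of 20 tested kinases, phosphatases and 14-3-3 proteins that act on the family, 6 rose and 1 fell in that comparison. That is 35%, against 31.4% of all genes called, 16.2% higher and 15.2% lower. Akt1, a kinase that phosphorylates Zfp36l1, stood at 0.80 ± 0.14, Rps6ka3 at 0.76 ± 0.18, and Ppp2r2a, a regulatory subunit of phosphatase PP2A, at -0.72 ± 0.16. At 200 µM against no 4sU in tubes 3 of these 20 rose (15%) and 0 fell. Over all 11080 tested genes 262 rose and 154 fell, together 3.75%. The 3 list genes that rose were Akt1 at 0.75 ± 0.14, Mapkapk2, which phosphorylates tristetraprolin, at 0.58 ± 0.15, and the 14-3-3 protein Ywhag at 0.53 ± 0.14. The last pair were named after their values were seen. This list had a median ratio of 27.6%. In the bottom 10% of all genes by ratio the median in that comparison was 0.19, with 5% called higher and 0% lower. How far the 3 rises belong to that was not tested. Without replicate B of fixed cells at 800 µM, some of the 20 passed the test at that dose, and calls over all genes rose. With all libraries none of the 20 passed it in either procedure. Pcbp1 alone of the other RNA-binding regulators did (0.47 ± 0.12 in tubes, adjusted p = 0.0444, edgeR, a call lost in 10 of 12 fits that left out a library).

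mRNAs reported as targets of the family were, like the members, mostly new after 2 hours. Of 39 on the list, 31 were in the table and 26 were tested, and the median of their ratios was 91.5%. At 800 µM against no 4sU, 3 rose and 5 fell in fixed cells, and 5 rose and 1 fell in tubes. That is 30.8% in fixed cells and 23.1% in tubes, where 2.66% and 1.87% of all genes were called. In the top 10% by ratio, where the list's median lies, 2.73% rose and 5.64% fell in fixed cells, and 3.82% rose and 2.73% fell in tubes. The list was chosen with earlier results of these data known, so its shares describe and do not test. The list had medians of -0.12 and 0.09, while the median over all genes was -0.00094 in fixed cells and 0.027 in tubes. Plaur, the urokinase receptor, rose by 1.16 ± 0.19 in fixed cells and by 1.12 ± 0.19 in tubes (adjusted p = 0.00286 and 0.00524, edgeR). Its level was 73.9 and 70.8 CPM at 800 µM against 31.6 and 33.3 CPM without 4sU in fixed cells, and 81.1 and 87.6 CPM at 800 µM against 46.2 and 31.7 CPM without 4sU in tubes. The groups did not overlap in either procedure. Ccl2, a monocyte-attracting chemokine, rose by 0.79 ± 0.18 in fixed cells and by 0.94 ± 0.19 in tubes (adjusted p = 0.0257 and 0.0148, edgeR). Ptgs2, the inducible cyclooxygenase, rose by 0.98 ± 0.17 in fixed cells, and the cytokine Lif by 2.59 ± 0.43 in tubes, where its level was 10.3 and 11.1 CPM at 800 µM against 2.89 and 0.793 CPM without 4sU.

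Targets that fell at 800 µM in fixed cells included Irf1, an interferon-response transcription factor (-1.25 ± 0.25), Lats2, a Hippo pathway kinase (-0.82 ± 0.16), and Dusp1, a phosphatase that inactivates p38 and so acts upstream of tristetraprolin (-0.74 ± 0.15; adjusted p of the 3 genes 0.00853 to 0.0160, edgeR). Dusp1 stood at -0.61 ± 0.15 in tubes (adjusted p = 0.0432, edgeR), a call lost in 10 of 12 fits that left out a library. The symbol Lats2 stands for 2 gene IDs in the table, and the one with more counts was used. In fixed cells against tubes without 4sU, 4 targets rose and 7 fell, 42.3% of those tested against 31.4% of all genes. Irf1 was higher (1.00 ± 0.25), while Bcl2, an inhibitor of apoptosis (-1.12 ± 0.23), and the kinase Pim1 (-0.91 ± 0.20) were lower.

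Early response genes, which are induced by growth factors together with Zfp36, had 26 of 27 tested and a median ratio of 92.6%. At 800 µM against no 4sU, 4 rose and 4 fell in fixed cells (30.8%, against 2.66% of all genes), and 4 rose and 2 fell in tubes (23.1%, against 1.87%). Btg2 and Dusp1, named above under other lists, are among them in both procedures. In the top 10% by ratio, where this list's median lies too, 2.73% rose and 5.64% fell in fixed cells, and 3.82% rose and 2.73% fell in tubes. The list was chosen with earlier results of these data known, so its shares are descriptive. Nr4a1, an orphan nuclear receptor, rose by 1.12 ± 0.18 in fixed cells and by 1.93 ± 0.19 in tubes (adjusted p = 0.00301 and 6.0e-05, edgeR). Its level was 116 and 114 CPM at 800 µM against 52.6 and 53.3 CPM without 4sU in fixed cells, and 135 and 115 CPM at 800 µM against 41.1 and 25.2 CPM without 4sU in tubes. Egr3, a zinc finger transcription factor, rose by 1.32 ± 0.24 in fixed cells and by 1.33 ± 0.22 in tubes. Egr1 fell by 0.81 ± 0.16 and Klf2 by 0.83 ± 0.21 in fixed cells, and Ier5 fell by 0.74 ± 0.13 in tubes. The Klf2 call was lost in 7 of 12 fits that left out a library, with values of -0.50 without replicate A and -1.19 without replicate B of fixed cells at 800 µM, and Egr3 in fixed cells was 0.82 without that replicate B. Over the same comparisons Zfp36 itself stood at 0.06 ± 0.47 in fixed cells and -0.39 ± 0.43 in tubes. In fixed cells against tubes without 4sU, 2 rose and 7 fell, a share of 34.6% against 31.4% of all genes (16.2% higher and 15.2% lower). Among them were Nr4a2 at -1.16 ± 0.18 and Egr3 at -0.98 ± 0.24, with Gadd45b at 0.93 ± 0.19 and Nr4a1 at 0.69 ± 0.20. The Nr4a1 value was 0.37 without replicate B and 1.07 without replicate A of tubes without 4sU, and its call was lost in 3 of 12 fits that left out a library.

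Counts of calls in these lists depended on single libraries, as did the counts over all genes, which are given in the last section. For fixed cells against tubes without 4sU, 3480 genes were called, and 4089 with TMM factors from low-ratio genes. At 800 µM in fixed cells no target was called without replicate A or without replicate B of fixed cells without 4sU, and 0 and 1 early response genes were. In a fit of only the compared groups 1 target and 1 early response gene were called. Every gene named above for that comparison kept its direction in those fits. Of the genes named at 800 µM against no 4sU, Nr4a1 and Lif in tubes lost their calls in 0 and 1 of 12 fits that left out a library, Cnot6l in 5, and the others, beside Dusp1 in tubes, Pcbp1 and Klf2, in 2 or 3. At 800 µM in tubes the count of targets was 3 without replicate A and 0 without replicate B of tubes without 4sU, and 2 without replicate A and 1 without replicate B at 800 µM. Early response genes numbered 1 without replicate B of tubes without 4sU, and 3 and 1 without replicates A and B at 800 µM. In fixed cells against tubes without 4sU the targets called numbered 6 without replicate B of the tubes, and 7 and 5 without replicates A and B of the fixed cells. Early response genes numbered 5 without replicate A of those fixed cells, 14 without either library of fixed cells at 800 µM, and 16 with TMM factors from low-ratio genes. The deadenylase count was 7 without replicate B of fixed cells without 4sU, and the kinase count 4 without its replicate A or without replicate B of the tubes, while the other RNA-binding regulators reached 13 without replicate A of fixed cells at 800 µM.

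**Figure D5:**
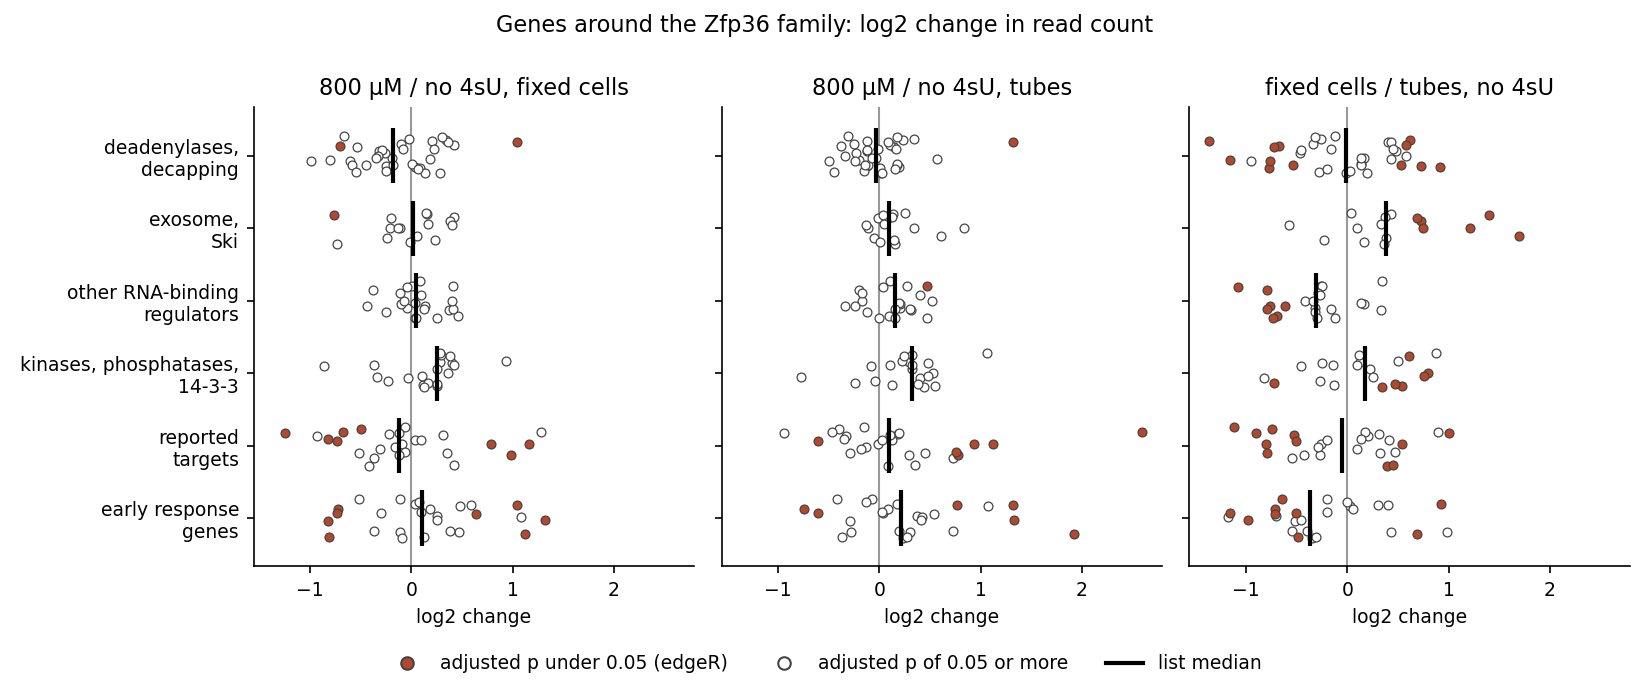
Log2 change in read count of each tested gene in 6 lists (points, filled where the edgeR test was passed) with the list median (bar), for 800 µM against no 4sU in fixed cells and in tubes and for fixed cells against tubes without 4sU. Reported targets and early response genes hold 8 filled points each in the first panel, against 2 or fewer in each of the other lists. A gene on more than 1 list is drawn in each. Dusp1 is filled in both of these lists, and Btg2 among early response genes and deadenylases.

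Genes whose levels moved most like the members over the 12 libraries had mean ratios of 12.5 to 80.3%. These lay on both sides of the median over 10987 genes, 44.6%. Likeness was the root mean square difference in log2 CPM after centring each gene on its own mean. Nearest to Zfp36l1 were Stim1, a calcium sensor of the endoplasmic reticulum (0.10), Flna, an actin crosslinker (0.10), and Srsf9, a splicing factor (0.11), against a median of 0.48 over 8289 genes and a spread of 0.43 for Zfp36l1 itself. Their mean ratios were 27.4%, 12.5% and 30.2%, against 98.2% for Zfp36l1. Nearest to Zfp36l2 were Ankrd27 (0.11), Mgat1 (0.12) and Tom1l2 (0.12), against its own spread of 0.27 and a median of 0.38. Nearest to Zfp36 were Adamts7 (0.26), Atf7 (0.30) and Tead3 (0.31), against its own spread of 0.47 and a median of 0.55, a looser match than for the paralogs. Of these 9 genes Tead3 had the highest mean ratio, 80.3%.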

How the data were processed

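Total RNA of 12 SLAM-seq libraries was analysed from a single deposited table. Its expected counts per gene were deposited by the authors; 16.2 to 22.0% of the values per library are not whole (tolerance 0.001). Its new-to-total ratios are fractions estimated by the authors, deposited as a most likely value, a mean and 0.05 and 0.95 quantiles. Per the submitters' processing notes cutadapt, Bowtie2 2.3.0 and STAR 2.7.10b were used; the sources used here do not give their roles, the build, the annotation or the ratio tool. The authors also deposited a pair of shape parameters per ratio (scores), not used in any result. Reads and ratios come from the same libraries, so a ratio also depends on how conversions were called. Library totals were 3629634 to 7762635 counts, with a common coefficient of biological variation of 12.3%; PCR copies cannot be told from molecules.

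Counts were rounded and fitted in 1 model of 6 groups with edgeR 4.0.16 (TMM, filterByExpr with a minimum count of 10 and total of 15, quasi-likelihood test, Benjamini-Hochberg at 0.05 over 11080 genes, which hold at least 99.9% of counts). Standard errors were taken as the log2 change divided by the root of F, with intervals from the t distribution. Ratios were tested with limma 3.58.1 on the log odds, held between 0.01 and 0.99, for 5538 genes with at least 100 counts in all 8 labelled libraries. Both tests were run on simulated data. The simulated ratios had less noise than those of the members, and their baselines were held away from the limits. That run therefore does not cover the ratio tests of the members. R 4.3.3, Python 3.11.15 and DESeq2 1.42.0 were used. Gene IDs of 15185 genes matched GENCODE M21; 32 did not.

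The members and the gene lists were chosen with earlier results of these data known, and the gene lists come from general knowledge of the family. Named genes are all members, the 3 genes nearest to each member in profile (mean count of at least 50), and the called list genes of largest change: up to 3 in each direction at 800 µM and up to 2 for fixed cells against tubes without 4sU. List genes outside the table were not analysed here. Fixed cells against tubes at 200 and 800 µM were added after the data were seen.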

Additional observations from a re-analysis of the deposited data

How the results depend on the processing

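The Zfp36l1 difference between fixed cells and tubes without 4sU stayed called in every setting tried, between -0.72 and -0.57 with a library left out. Of 226 other member values under settings that keep all libraries, 220 kept their direction and side of the threshold. The 6 exceptions were these. TMM factors taken from the 3662 genes of lowest ratio shifted the all-gene median by -0.13 at 800 µM in fixed cells, -0.15 at 200 µM in tubes and -0.13 at 800 µM in tubes. There Zfp36 at 800 µM in fixed cells became -0.065, Zfp36l2 at 800 µM in tubes -0.049, and at 200 µM in tubes Zfp36l1 became -0.061 and Zfp36l2 -0.0095. In fits of the compared groups alone, Zfp36l2 at 200 µM in fixed cells was -0.37 (called) and in fixed cells against tubes at 800 µM -0.41 (not called); the cause was not tested.

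With a library left out, the Zfp36 values ran from -0.36 to 0.66 at 800 µM and from -0.26 to 0.76 at 200 µM in fixed cells, from -1.04 to 0.69 and from -0.94 to 0.78 in tubes, from -0.62 to 1.10 and from -0.63 to 1.09 for the differences of the 4sU effect at 200 and 800 µM, from -1.43 to 0.30 for fixed cells against tubes without 4sU, and from -0.47 to 0.18 for 800 against 200 µM in fixed cells. Zfp36l1 ran from -0.20 to 0.044 at 200 µM in fixed cells. Zfp36l2 ran from -0.034 to 0.19 at 800 µM in tubes, from -0.19 to 0.34 and from -0.18 to 0.044 for 800 against 200 µM in fixed cells and in tubes, from -0.63 to -0.56 and from -0.70 to -0.21 for fixed cells against tubes at 200 and 800 µM, and its ratio difference at 800 µM from -1.41 to 0.58.

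The replicate letters were tried as a pairing, although same-lettered libraries did not deviate together (correlations of -0.10 to 0.09 over 15 group pairs, 0 above 0.1). With the replicate block, Zfp36l1 in fixed cells against tubes without 4sU was -0.65 and none of 41 member calls changed.

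Counts of called genes moved more. At 800 µM in fixed cells 295 genes were called, 24 to 1199 with a library left out, and 40 to 816 under the other settings. At 200 µM in fixed cells the count was 90, with 2 to 232 and 68 to 652. In tubes it was 207 at 800 µM, with 22 to 589 and 177 to 482, and 416 at 200 µM, with 18 to 1033 and 320 to 854. For fixed cells against tubes it was 3480 without 4sU, 3580 at 200 µM and 3889 at 800 µM, never below 2092 nor above 4677. The comparisons with no call reached 127 genes without the filter on low counts and 965 without replicate B of fixed cells at 800 µM. Higher calls made up 29.2% of calls at 800 µM and 30.0% at 200 µM in fixed cells, and 48.8% and 63.0% in tubes; with factors from low-ratio genes these were 9.13%, 11.3%, 18.5% and 17.9%, and with RLE scaling 47.4% at 800 µM in fixed cells. Of the named list genes' values, 82 of 492 with a library left out and 19 of 246 otherwise lost their call, and none turned direction.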
